A study of Drosophila melanogaster with 6 samples.

Results

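The genes described here are 10 members of the sex determination pathway of Drosophila melanogaster, Sxl, tra, tra2, dsx, fru, ix, her, dsf, snf and fl(2)d, measured in males that had just courted and in males that had met no female. Members were taken by name, and every probe set that the array annotation pairs with exactly 1 gene of the list was kept. This gave 13 probe sets for 9 of the 10 genes, out of 10844 genes with a probe set of their own, and snf is not analysed here. All males were virgins of the wild-type strain Canton-S, 4 days old, kept alone from day 3. In the exposed group, each male was given a virgin female for 5 min, and only males that courted strongly without copulating were pooled, about 12 to a pool. In the unexposed group, males went through the same handling with no female, and no choice among them by behaviour is described, so exposure and the choice of strong courters cannot be told apart. Whole-body RNA of 3 pools of each group was hybridized to Affymetrix Drosophila version 1 arrays, 1 array a pool, and pools with the same number (1 to 3) are treated as a pair.

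In the fly, somatic sex is set by a chain of splicing decisions. Sxl, an RNA-binding protein that is active in females, directs the splicing of tra, and Tra protein together with Tra2 directs female splicing of dsx and fru. In males functional Sxl and Tra proteins are not made, so dsx and fru are spliced in the default way and yield the male forms of their transcription factors. The male Dsx protein shapes the body and part of the nervous system, and male Fru proteins build and run the neurons used in courtship. The question put to these genes is whether 5 min of courtship moved their RNA levels in the whole body. Each probe set gives 1 signal for a gene, and the splice forms it reads are not known here, so a change in splicing without a change in total signal would not be seen.

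The arrays of replicate 1 stood apart from the other 4 in both groups by several measures, and from each other in RNA quality. The ratio of 5' to 3' signal of the actin control was 0.0561 on exposed array 1 and 0.443 and 0.457 on exposed arrays 2 and 3, against 0.173 on unexposed array 1 and 0.424 and 0.441 on unexposed arrays 2 and 3. For GAPDH it was 0.172 on exposed array 1 and 0.519 on unexposed array 1, and for eIF-4a 0.0885 on exposed array 1 and 0.50 on unexposed array 1, beside 0.513 to 0.77 for these controls on the other arrays. By eIF-4a, unexposed array 1 thus lay close to the arrays of replicates 2 and 3, and the pools of pair 1 differed in these ratios more than those of pairs 2 and 3. The median signal of 23 bacterial, yeast and mouse control probe sets, which match no fly gene and are called foreign controls here, was 80.1 on exposed array 1 and 81.0 on unexposed array 1, and lay between 22.9 and 31.3 on the other arrays. A few foreign controls were bright on every array, and their 95th percentile was 1643 on exposed array 1, 1070 on unexposed array 1 and 146 to 185 elsewhere. Accessory gland markers were above the foreign median on every array for 4 of 4 genes and testis markers for 4 of 6, whereas the neuronal markers elav, nSyb and brp were above it on the 4 arrays of replicates 2 and 3 and below it on both replicate 1 arrays. Egg and ovary markers were above it on every array for 5 of 5 genes, with summed signals of 5870 on exposed and 5725 on unexposed array 1 and down to 1539 in exposed and 1422 in unexposed males on the others. The part of all these in the results below was not tested.

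No sex determination probe set passed the test between exposed and unexposed males. The test, limma on log2 signals with the pair as a block, was run on 8251 of 13966 probe sets, those that reached a signal of 100 on 3 or more arrays as the study's methods require. Of all probe sets, 59.1% passed this filter, and of the sex determination probe sets 4 of 13 passed: those of tra2, fl(2)d, her and ix. Their adjusted p ranged between 0.905 and 0.967 by limma. Over all probe sets tested, 0 passed at an adjusted p under 0.05 (0.0%) and 2 at an unadjusted p under 0.001 (0.0242%), while the paired Cyber-T test of the study's methods, rewritten for this purpose, called 21 at that unadjusted p (0.255%) and none of the 4. At an unadjusted p under 0.05 by limma, 31 probe sets were higher (0.376%) and 175 lower (2.12%) in exposed males, and 0 of the 4 were among them. In a fit without the filter, which takes in all 13 probe sets, 0 of the 13 had an unadjusted p under 0.05, against 2.67% of all probe sets. In RNA of whole bodies, fewer cells of a type and less RNA per cell cannot be told apart. The p-values take in only how the difference between exposed and unexposed pools varied between these pairs. Limma draws the estimate of that variation for each probe set toward that of all probe sets in the fit.

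**Figure D1:**
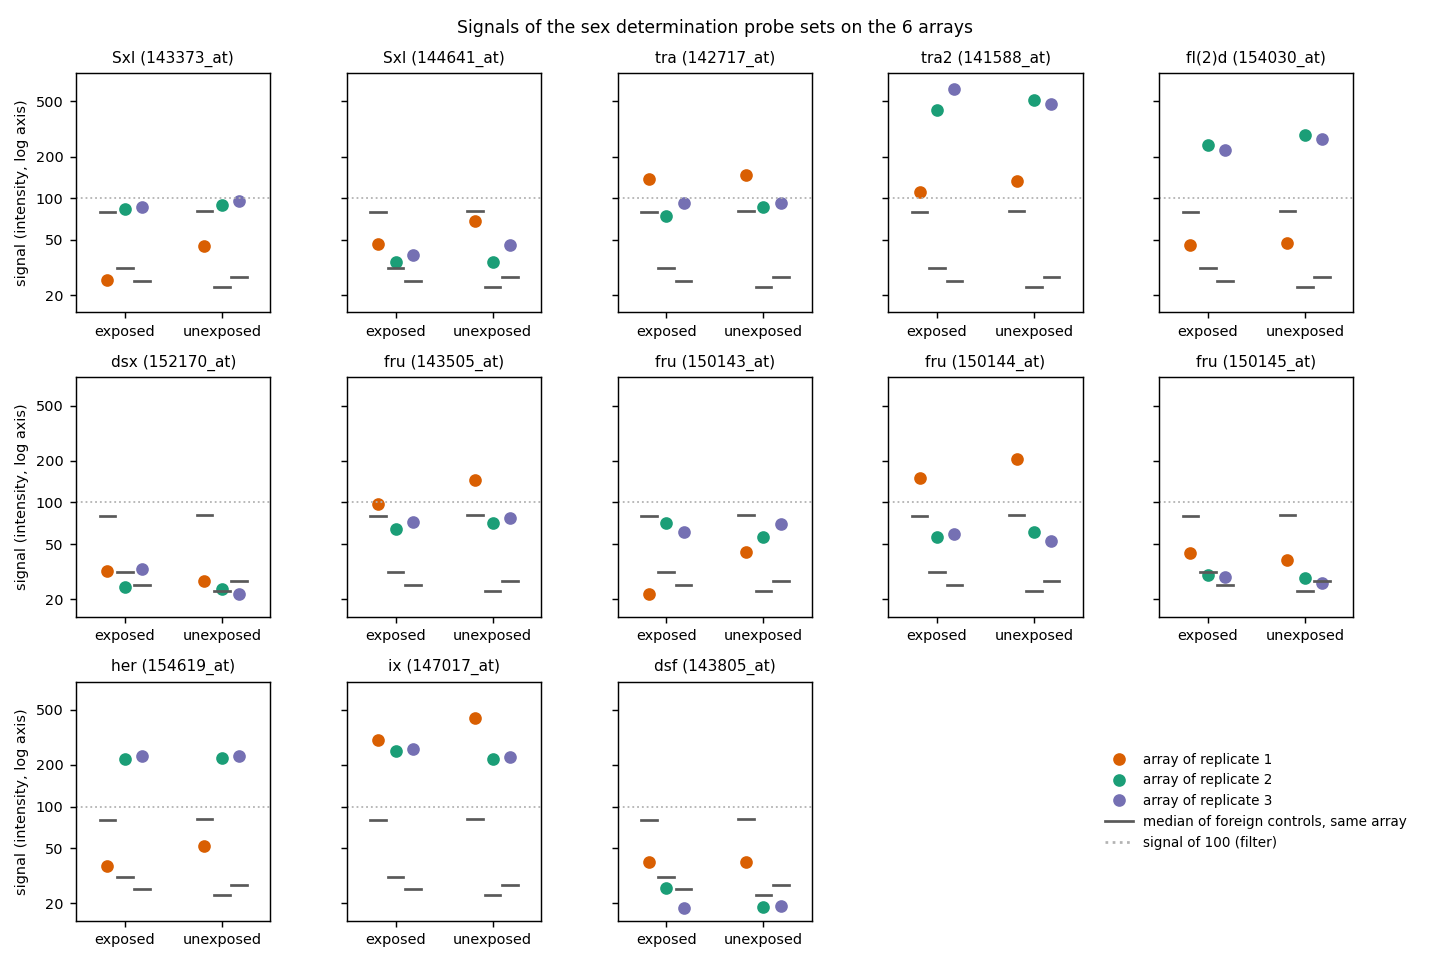
Signal of each sex determination probe set (intensity, log axis) on the 3 exposed and 3 unexposed arrays, with points coloured by replicate, short bars at the median of the foreign controls of the same array and a dotted line at a signal of 100. For tra2, fl(2)d, her and fru 150144_at the replicate 1 arrays lie apart from replicates 2 and 3 in exposed and unexposed males alike, and of the 13 probe sets those of tra2 and ix were above 100 on all 6 arrays.

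At the head of the pathway stands Sxl, the female switch, whose male transcripts do not encode the functional protein. Its probe set 143373_at had signals of 25.7, 83.7 and 86.2 on exposed arrays 1 to 3 and 45.4, 88.9 and 95.2 on unexposed arrays 1 to 3. The exposed pool was the lower one in 3 of 3 pairs, with log2 ratios of -0.82, -0.09 and -0.14, although the ranges of the 2 groups overlapped. The mean was -0.35 (standard error 0.21, 95% interval -0.91 to 0.21, adjusted p = 0.92 from limma without the filter). The second Sxl probe set, 144641_at, gave 47.1, 34.4 and 39.1 in exposed males and 68.4, 34.5 and 46.3 in unexposed males. Here too every exposed pool was below its partner, by an amount that in pair 2 was no more than the rounding of the values. Its mean was -0.26 (standard error 0.17, adjusted p = 0.92). In both probe sets pair 1 carried most of the difference, and over pairs 2 and 3 alone each averaged -0.12. All of these signals were under 100, and on the replicate 1 arrays all lay under the foreign median.

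The splicing factor gene fl(2)d, which encodes a part of the RNA methylation complex that Sxl needs in order to control its own splicing, was the tested member with the largest mean difference. Its signals were 46.2, 241 and 222 in exposed males and 47.4, 287 and 269 in unexposed males. The exposed pool was lower in 3 of 3 pairs, at log2 ratios of -0.04, -0.25 and -0.28, and in replicates 2 and 3 both exposed arrays lay below both unexposed arrays. The mean log2 fold change was -0.19 (standard error 0.13, 95% interval -0.53 to 0.15, adjusted p = 0.905 from limma). The interval runs between 0.695-fold and 1.11-fold. On both replicate 1 arrays fl(2)d was below the foreign median, so that its ratio there is one of values at background level.

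The gene tra, through which Sxl acts, had signals of 138, 74.5 and 92.3 in exposed males and 147, 86.1 and 92.4 in unexposed males. Exposed males were lower in 3 of 3 pairs by this count, but in pair 3 the values differed in the third digit alone. The mean was -0.10 (standard error 0.14, 95% interval -0.48 to 0.27, adjusted p = 0.927 from limma without the filter). With 2 arrays at 100 or more, tra fell short of the filter by 1 array, and unlike Sxl it was above the foreign median on all 6 arrays.

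Its partner tra2, which encodes an RNA-binding protein present in both sexes and also needed in the male germ line, was among the brightest members. Signals were 111, 433 and 612 in exposed males and 133, 509 and 476 in unexposed males. Group means were 385 ± 254 in exposed and 373 ± 208 in unexposed males (SD, n = 3 each), with the lowest signal of each group on its replicate 1 array. In pairs 1 and 2 exposed males were lower and in pair 3 higher, with log2 ratios of -0.27, -0.23 and 0.36. The mean log2 fold change was -0.04 (standard error 0.18, 95% interval -0.52 to 0.43, adjusted p = 0.967 from limma). The interval spans 0.70-fold to 1.34-fold, and the sign turned without replicate 1 or replicate 2.

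The transcription factor gene dsx, the last switch of the pathway for body form, was at background level on these arrays. Its single probe set gave 32.2, 24.6 and 32.9 in exposed males and 27.2, 23.8 and 21.9 in unexposed males. The exposed pool was the higher one in 3 of 3 pairs, at log2 ratios of 0.24, 0.05 and 0.59, yet the groups overlapped and the signal was above the foreign median of its own array on 2 of 6 arrays. The mean was 0.29 (standard error 0.17, 95% interval -0.17 to 0.75, adjusted p = 0.92 from limma without the filter). With signals under 50 set to 50, no difference is left, since every value is under 50. A difference in dsx RNA was not detectable at this signal.

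The gene fru, which encodes zinc finger transcription factors and whose male forms are made in neurons of the courtship circuit, has 4 probe sets. None of the 4 passed the filter. The first, 143505_at, had signals of 98.3, 63.9 and 71.8 in exposed males and 146, 70.5 and 77.1 in unexposed males. Each exposed pool was below its partner, with log2 ratios of -0.57, -0.14 and -0.10 and a mean of -0.27 (standard error 0.17, 95% interval -0.73 to 0.18, adjusted p = 0.92 from limma without the filter). Probe set 150144_at, the one with the highest mean signal of the gene, gave 151, 55.9 and 59.3 in exposed males and 207, 61.2 and 52.7 in unexposed males. Exposed males were lower here in pairs 1 and 2 and higher in pair 3, with a mean of -0.14 (standard error 0.18). Both probe sets were above the foreign median on all 6 arrays.

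The remaining 2 probe sets of fru behaved differently from these and from each other. Probe set 150143_at had 21.7, 71.4 and 61.3 in exposed males and 44.1, 56.6 and 69.8 in unexposed males, with log2 ratios of -1.02, 0.34 and -0.19. It was under the foreign median on both replicate 1 arrays, where the large negative ratio arose. Probe set 150145_at had 43.5, 30.0 and 29.2 in exposed males and 38.7, 28.7 and 26.2 in unexposed males, and the exposed pool was higher in 3 of 3 pairs at 0.17, 0.07 and 0.15. This last probe set was above the foreign median on 2 of 6 arrays. The means of the 4 probe sets of fru thus ran between -0.29 and 0.13, and over pairs 2 and 3 alone between -0.12 and 0.11. Each 95% interval held 0, the widest running between -1.10 and 0.52 for 150143_at.

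Of the genes that work beside Dsx, her and ix passed the filter. The gene her, which encodes a zinc finger protein needed for female differentiation together with dsx, had 37.6, 221 and 231 in exposed males and 52.4, 223 and 232 in unexposed males. In replicates 2 and 3 the 4 values agreed to within 1.05-fold, the tightest of all members. The log2 ratios were -0.48 in pair 1 and -0.01 in pair 2, and in pair 3 the signals were 231 and 232. On both replicate 1 arrays her was below the foreign median, so that the ratio of pair 1 is one of values at background level. The mean log2 fold change was -0.17 (standard error 0.16, 95% interval -0.58 to 0.25, adjusted p = 0.905 from limma), and without replicate 1 it was -0.01.

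The gene ix, which encodes a Mediator subunit that acts with the female form of Dsx, had 303, 252 and 263 in exposed males and 440, 220 and 230 in unexposed males. Pair 1 had a ratio of -0.54, whereas pairs 2 and 3 had 0.20 and 0.19. In replicates 2 and 3 both exposed arrays were thus above both unexposed ones, while the brightest and the dimmest of all 6 values were unexposed. The mean log2 fold change was -0.05 (standard error 0.20, 95% interval -0.58 to 0.48, adjusted p = 0.966 from limma), and it was 0.19 without replicate 1.

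The gene dsf encodes an orphan nuclear receptor that is needed for normal mating behaviour in both sexes. Its probe set gave 39.9, 25.8 and 18.4 in exposed males and 39.7, 18.9 and 19.2 in unexposed males. It was above the foreign median on 0 of 6 arrays, so these values are background. The log2 ratios of 0.01, 0.45 and -0.06 averaged 0.13 (standard error 0.17, adjusted p = 0.925 from limma without the filter).

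**Figure D2:**
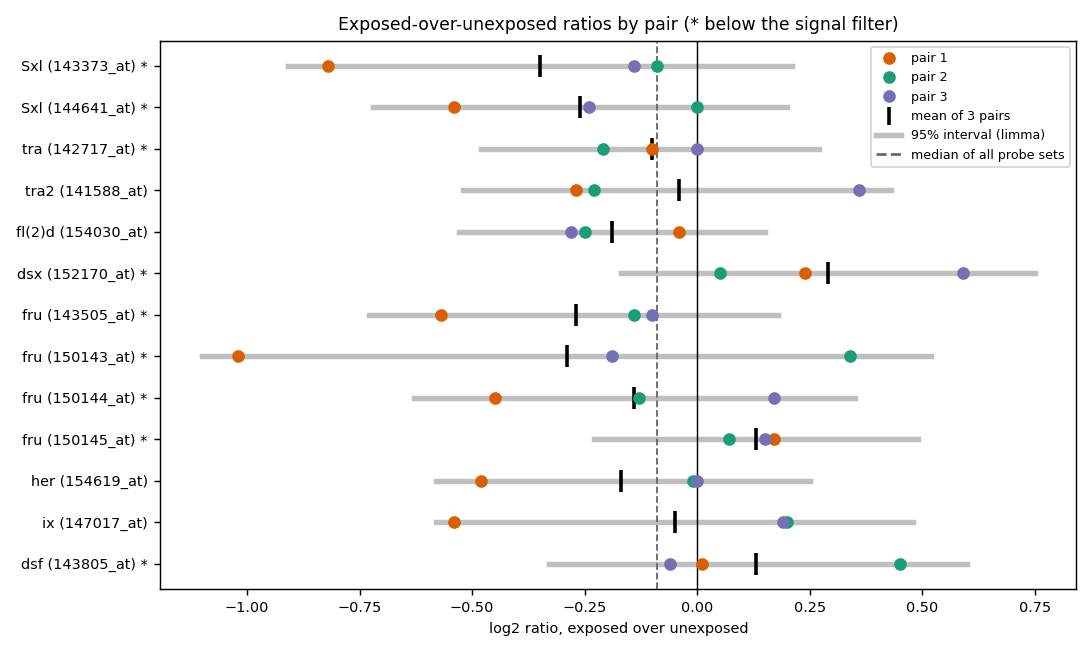
Log2 ratio of exposed over unexposed signal for each sex determination probe set, with 1 point per pair, a tick at the mean of the 3 pairs, a grey bar for the 95% interval from limma and a dashed line at the median of all probe sets (-0.09). All 13 intervals hold 0, and pair 1 gives the most negative ratio for 8 of the probe sets.

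Across the 13 probe sets, exposed males were lower in all 3 pairs for 6 (both of Sxl, tra, fl(2)d, her and fru 143505_at) and higher in all 3 for 2 (dsx and fru 150145_at). Of all probe sets, 17.9% were lower and 6.56% higher in all 3 pairs. These counts turn on small array-wide offsets, since the median log2 ratio over all probe sets was -0.20 in pair 1, -0.08 in pair 2 and 0.05 in pair 3. After the median of each array was subtracted, 1 of the 13, fru 143505_at, was lower in all 3 pairs (9.82% of all probe sets) and the same 2 were higher (13.9%). The median log2 fold change was -0.14 over all 13 probe sets, beside -0.09 over all probe sets. Over the 4 that passed the filter it was -0.11, beside -0.09 over all 8251 tested, and it was 0.03 without replicate 1. All 4 had a negative mean, as did 70.5% of all probe sets tested. In pairs 2 and 3 alone the mean ratios of the members lay between -0.26 for fl(2)d and 0.32 for dsx.

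For several of these genes the replicate 1 arrays differed from the others by more than exposed males differed from unexposed males. On exposed array 1, her was 6.02-fold lower than the mean of exposed arrays 2 and 3 (means of log2 signals), fl(2)d 5.00-fold and tra2 4.66-fold lower. On unexposed array 1 the same genes were 4.34-fold, 5.86-fold and 3.70-fold lower than unexposed arrays 2 and 3. Sxl 143373_at was 3.31-fold lower in exposed and 2.03-fold lower in unexposed males. Thus 4 of 13 probe sets were lower on replicate 1 by over 2-fold in both groups, against 23.6% of all probe sets. In the other direction, fru 150144_at was 2.62-fold higher on exposed array 1 and 3.64-fold higher on unexposed array 1. It was the only 1 of the 13 to be over 2-fold higher in both groups, against 19.8% of all probe sets. Of the other three probe sets of fru, 143505_at was higher on replicate 1 by 1.45-fold in exposed and 1.99-fold in unexposed males and 150145_at by 1.47-fold and 1.41-fold, while 150143_at was 3.04-fold lower in exposed and 1.43-fold lower in unexposed males. The second Sxl probe set, unlike the first, was 1.28-fold higher on replicate 1 in exposed and 1.71-fold higher in unexposed males. By contrast, the 4 arrays of replicates 2 and 3 spanned 1.05-fold (her) to 1.5-fold (dsx) over the members. Labelling and hybridization were done at 2 core facilities, and the sources used here do not say which arrays each of them ran. The part of facility, RNA quality and pool in these shifts was not tested.

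**Figure D3:**
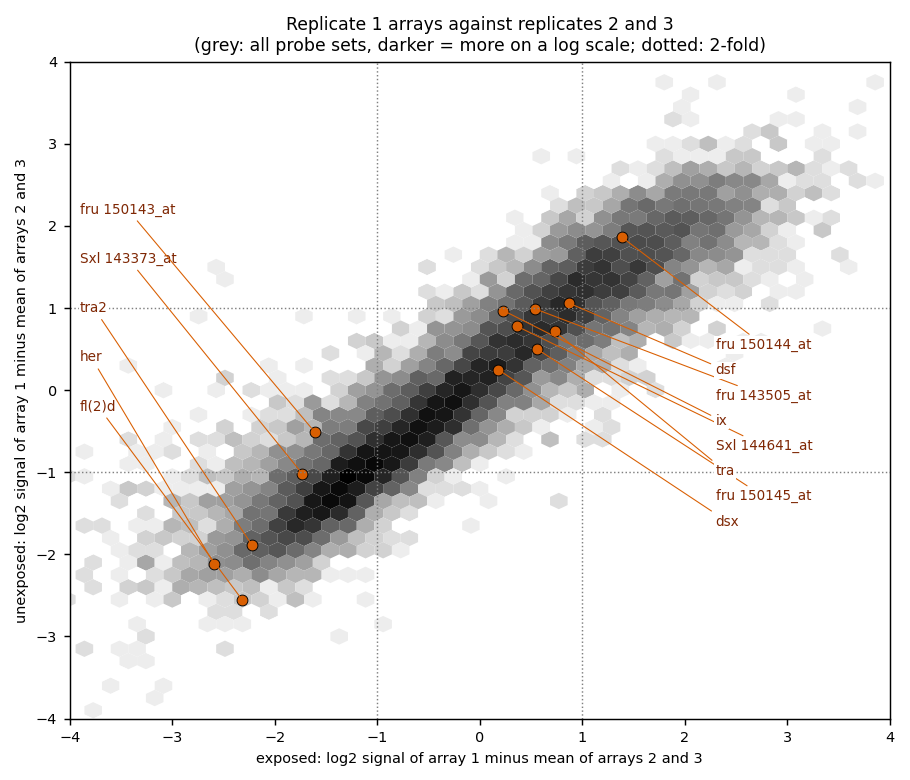
Log2 signal of the replicate 1 array minus the mean of the arrays of replicates 2 and 3, in exposed males (x axis) and unexposed males (y axis), for all probe sets (grey, darker where denser) and the 13 sex determination probe sets (orange), with dotted lines at 2-fold and probe sets beyond 4 on either axis left out. Tra2, fl(2)d and her lie in the lower left corner at -1.89 or less on both axes, and fru 150144_at lies at the upper right, at 1.39 and 1.86.

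Further genes of the pathway were taken from lists by function, each gene by its brightest probe set. The first list holds genes of the Sxl switch and its partners, with 16 of 20 genes on a probe set of their own and 8 tested. None of the 8 had an adjusted p under 0.05 by limma, and 0 were higher and 0 lower at an unadjusted p under 0.05. Mean log2 fold changes lay between -0.32 and 0.10 with a median of -0.12, beside -0.09 over all probe sets tested. Means were negative for 7 of the 8, against 70.5% of all probe sets tested, and for 4 of the 8 after median centring, against 3677 of all 8251. The lowest was that of nito, an RNA-binding member of the methylation complex, with signals of 167, 102 and 92.9 in exposed males and 250, 108 and 113 in unexposed males (-0.32, standard error 0.15, adjusted p = 0.905). U2af38, which encodes the small subunit of a splicing factor, had 63.6, 355 and 351 in exposed males and 90.8, 387 and 353 in unexposed males (-0.22, standard error 0.15), and the corepressor gene gro had -0.31 (standard error 0.17). Without replicate 1 these values were -0.19 for nito, -0.07 for U2af38 and -0.18 for gro. Ythdc1, which encodes the reader of the methyl mark on Sxl RNA, was under the filter with 28.5, 54.6 and 60.1 in exposed and 34.6, 74.1 and 86.0 in unexposed males. Each exposed pool was below its partner, with a mean of -0.41 (standard error 0.14, unadjusted p = 0.0394, adjusted p = 0.92 from limma without the filter). In that fit 2.67% of all probe sets had an unadjusted p under 0.05, and Ythdc1 was picked after its values were seen. On both replicate 1 arrays it was under the foreign median.

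The second list holds splicing regulators of dsx and fru pre-mRNA and spliceosome partners of Snf, a small nuclear ribonucleoprotein component. Of its 10 genes, 6 were on the array with an unshared probe set and 5 were tested. All 5 had a negative mean (70.5% of all probe sets tested), with a median of -0.26. After median centring 4 of the 5 did, against 3677 of all 8251. With quantile normalization all 5 did, against 4031 of all 8251, and without replicate 1 also all 5, against 4541. By limma, 0 of the 5 had an unadjusted p under 0.05. The SR protein gene B52 had -0.35 (standard error 0.18), from 365, 781 and 866 in exposed males and 604, 972 and 872 in unexposed males, and it had -0.16 without replicate 1. The lowest value, -0.91 (standard error 0.49) for snRNP-U1-70K, came from a signal of 16.9 on exposed array 1 against 86.6 on unexposed array 1, both near or below the foreign median of 80.1 and 81.0. In pairs 2 and 3 its ratios were -0.29 and -0.08, which average -0.19.

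Of 9 cofactors and relatives of Fru, Dsx and Dsf, 8 had an unshared probe set and 4 were tested, with 0 called by limma at an unadjusted p under 0.05. Their means ran between -0.40 and 0.34, with 3 negative and 1 positive and a median of -0.17. Of all probe sets tested, 70.5% had a negative mean. After median centring it was again 3 of the 4, against 3677 of all 8251. The gene with the smallest unadjusted p of the list, which encodes a heterochromatin protein, was higher in exposed males in 3 of 3 pairs, with 553, 242 and 274 in exposed males and 353, 207 and 246 in unexposed males. Its groups overlapped, and its mean of 0.34 (standard error 0.16, adjusted p = 0.905 from limma) was 0.19 without replicate 1. HDAC1, a histone deacetylase gene, was lower in exposed males in 3 of 3 pairs, at log2 ratios of -0.26, -0.18 and -0.14 (-0.19, standard error 0.12, adjusted p = 0.905). Hr51, a nuclear receptor gene of the same family as dsf, had -0.40 (standard error 0.20), with -0.85 in pair 1 and a mean of -0.18 without replicate 1.

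Of 11 somatic genes that depend on Sxl or on genes below it, 9 were tested, and 8 of the 9 had a positive mean, against 29.5% of all probe sets tested, with a median of 0.21. After median centring it was again 8 of 9, against 55.4%, and without replicate 1 it was 7 of 9, against 45.0%. At an unadjusted p under 0.05, 1 of the 9 was higher (0.376% of all probe sets tested), Obp99b, the odorant-binding protein gene that is more abundant in males (0.57, standard error 0.12, adjusted p = 0.905 from limma). The study chose Obp99b and fit on these samples, so their values here are not independent evidence of a direction. The same holds for the counts out of 9 above, which include both genes. It also reports both as higher in exposed males by real-time PCR of independent samples. On these arrays fit was lower in exposed males in pair 1 and higher in pairs 2 and 3. The mean of fit was 0.19 (standard error 0.29, adjusted p = 0.925 from limma). The bric-a-brac gene bab2, whose neighbour bab1 is a direct target of Dsx, had 1851, 623 and 548 in exposed males and 1671, 580 and 424 in unexposed males, which is 0.21 (standard error 0.13), while bab1 itself had -0.25 (standard error 0.19). The yolk protein gene Yp1, the classical target of Dsx, had 0.29 (standard error 0.13). Its signals were 1448, 399 and 371 in exposed males and 1076, 319 and 341 in unexposed males, brightest on replicate 1. The yolk protein genes Yp2 and Yp3 had 0.11 (standard error 0.14) and 0.08 (standard error 0.21). Yp3 was higher in exposed males in pair 1 and lower in pairs 2 and 3.

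Of 12 courtship genes outside the pathway, 2 passed the filter, dati and Gr68a. The brightest probe set of dati, a zinc finger gene needed for female receptivity, was listed at 0 on exposed arrays 2 and 3 and had 379 on exposed array 1, against 773 on unexposed array 1 and more than 100 on unexposed arrays 2 and 3. A listed 0 may be a failed estimate, so no fold is given. The unadjusted p of 0.014 by limma (adjusted p = 0.905) was computed with these zeros raised to 1. So was the adjusted p of 0.00814 by limma without replicate 1, which made this probe set 1 of 2 called there. With signals under 50 set to 50 the log2 difference was -1.05 (adjusted p = 0.918). Of the other two probe sets of dati, the brighter gave 46.7, 45.7 and 41.8 in exposed males and 46.6, 54.5 and 44.2 in unexposed males. Gr68a, a gustatory receptor gene, had a mean of 0.21 (standard error 0.18), which was 0.01 without replicate 1, and was far brighter on the replicate 1 arrays, at 944 in exposed and 629 in unexposed males.

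**Figure D4:**
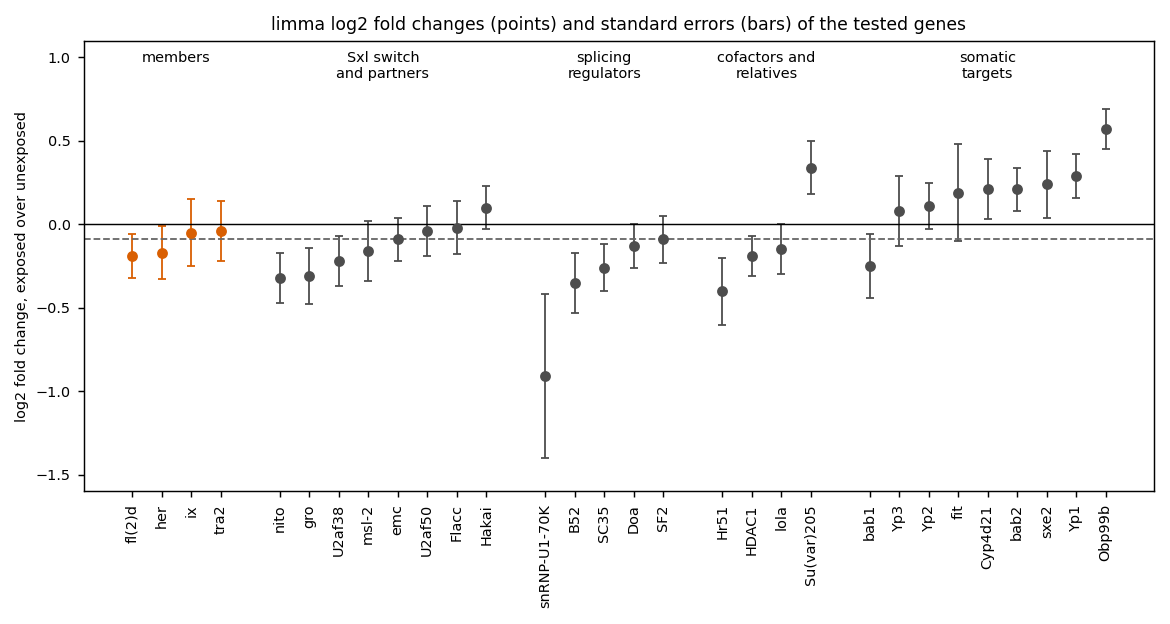
Log2 fold change of exposed over unexposed males (points) with its standard error (bars) from limma for the 4 tested sex determination genes (orange) and the tested genes of 4 lists (grey), with a dashed line at the median of all probe sets tested (-0.09). The 4 members lie between -0.19 and -0.04, and all 5 splicing regulators lie below 0, as do 70.5% of all probe sets tested. Above 0 lie 8 of 9 somatic targets, among them Obp99b and fit, which the study chose on these samples.

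The genes whose signals ran most like those of fru and dsx were picked by the smallest mean absolute difference in log2 signal over the 6 arrays, each probe set centred on its own mean, among 7345 tested probe sets of other genes. For fru 150144_at these were Cralbp (0.042), ato (0.051), which encodes a proneural transcription factor, and Mayo (0.055). The shared pattern was that of the replicate 1 arrays. Cralbp had 264, 105 and 111 in exposed males and 361, 111 and 98.0 in unexposed males. For dsx the nearest were CG5157 (0.075), Ccdc58 (0.103) and Nxt1 (0.104). CG5157 had 169, 129 and 148 in exposed males and 158, 121 and 115 in unexposed males, well above the dsx signals, which were at background.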

How the data were processed

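The authors deposited a linear intensity for each probe set on each array. GCOS 1.2 is named in the submitters' processing notes and dChip in the methods, without saying which of them made the table or to what target it was scaled. Median signals of the arrays lay between 107 and 133, and the number of arrays limits the precision. Of 13966 probe sets beside 44 controls, 12443 name 1 gene, 327 name several and 1196 are unnamed here. Gene names follow RefSeq through Entrez ID. No sequences are printed.

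Before log2 transformation, values below 1 were raised to 1. Exposed and unexposed arrays were compared across all probe sets with limma 3.58.1 in R 4.3.3, blocked on replicate number and filtered as in the study (100 or more on at least 3 arrays), and p-values were adjusted by Benjamini-Hochberg over all probe sets tested. The pairing comes from the methods, which describe parallel collection and a paired test; deviations of same-numbered arrays from group means correlated at 0.844, 0.76 and 0.78. Replicates 2 and 3 by themselves do not bear it out (-0.332 for the difference of the 2 arrays). P-values set the exposed-unexposed difference against its spread between pairs of pools, which limma and Cyber-T draw toward that of other probe sets. Cyber-T was rewritten (10 prior observations). Code was tested on simulated data. All member probe sets are named, and of each list at most 5 genes, from those tested with the smallest unadjusted p. Exceptions chosen after their values were seen are Ythdc1, under the filter, Yp2, Yp3 and fit. A heterochromatin protein gene is given by its role, with its symbol in the plot of the lists. List directions under other scalings and without replicate 1 were added after seeing the data. Listed names that are no current symbol were matched through RefSeq synonyms. The members and lists were chosen with earlier results of these data known.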

Additional observations from a re-analysis of the deposited data

How the results depend on the processing

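Depth of signal limits these results: 9 of 13 member probe sets were under the filter, and 0 of 13 were above the 95th percentile of the foreign controls on all 6 arrays. On the replicate 1 arrays that percentile, 1643 in exposed and 1070 in unexposed males, was above every member signal. On the 4 arrays of replicates 2 and 3, tra2, fl(2)d, her and ix were each above it. None of the 4 tested members passed at an adjusted p under 0.05 in any of the 13 alternatives; the other 9 have an adjusted p from the fit with no filter, and none passed there. The sign of tra2 turned without replicate 1 (0.07) and replicate 2 (0.05; without replicate 3 it was -0.25) and with median centring (0.06) or quantile normalization (0.06). That of ix turned without replicate 1 (0.19, against -0.17 without replicate 2 or 3) and with median centring (0.06) or quantile normalization (0.07). Of the members under the filter, fru 150143_at turned without replicate 1 (0.07) and with signals under 50 set to 50 (0.05), fru 150144_at without replicate 1 (0.02) and dsf without replicate 2 (-0.03), and tra came to 0.00 with median centring. The median of the 4 tested members, -0.11, ranged between -0.21 (without replicate 3) and 0.03 (without replicate 1), and was 0.01 with quantile normalization and within rounding of 0 with median centring. The causes were not tested.

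Over all probe sets, 2 passed at an unadjusted p under 0.001, against 1 with no replicate block, 5 with the replicate 1 arrays as a batch, 1 with quantile normalization, 5 with no filter, 5 with a mean signal of at least 100, 4 with signals under 50 set to 50, 4 with 32 added to every signal, 21 by Cyber-T and between 0 and 14 when each replicate was left out. At an adjusted p under 0.05 none passed, against 1 by Cyber-T and 0 to 2 without a replicate. At an unadjusted p under 0.05, 31 were higher and 175 lower, against 0 and 10 with no replicate block, 75 and 392 with the replicate 1 batch, 127 and 102 with median centring, 146 and 120 with quantile normalization and 76 and 297 with no filter. Cyber-T gave 281 lower. Without a replicate, 14 to 128 were higher and 97 to 255 lower. Median centring moved the median of all probe sets tested to 0.02, against -0.09.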
